A study of Mus musculus with 19 samples.

Results

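The 13 hearts described here came from mice that received isoproterenol, and they were ordered within their treatment groups by their level of miR-21a-5p. They are 13 of the 19 whole hearts of the series, taken by their treatment label, and the saline hearts do not enter. Their order, and so which hearts stand at each end, was chosen by measured values, the scaled reads of miR-21a-5p. In both groups the mice were male wild-type (WT) C57BL6/J animals, aged 12 weeks, with a miniosmotic pump that released 30 mg/kg of isoproterenol, a beta-adrenergic agonist, per day for 21 days. Of these, 6 hearts had isoproterenol alone, and 7 came from mice that also received 50 mg/kg of minocycline, a tetracycline antibiotic, by daily intraperitoneal injection. For mice without minocycline, no vehicle injection is named in the labels. Per the labels each small RNA library is 1 mouse, and hearts are named below by the animal number. All p-values measure the spread among these individual hearts.

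microRNAs are short RNAs that pair with messenger RNAs, mainly through a seed of a few bases near their 5′ end, and lower the output of those messages. miR-21a-5p is abundant in activated cardiac fibroblasts and is widely used as a marker of cardiac remodelling, the growth of muscle cells and deposition of matrix that sustained beta-adrenergic stimulation brings about in rodents. Other microRNAs mark the cells of the heart: miR-1a, miR-133a, miR-208a and miR-499 are muscle microRNAs, miR-199a, miR-199b and miR-214 are typical of mesenchymal cells, and miR-126a of endothelium. In whole-heart RNA, fewer cells of a type and less of a microRNA per cell cannot be told apart.

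The mature sequences below are those of miR-21a-5p, which orders the hearts, and of the microRNAs that the results turn on. Each is written 5′ to 3′ as the deposited table gives it, in DNA letters, with the seed (bases 2 to 8) in capitals. Of 16 microRNAs looked up, 14 matched the RefSeq table by name, and positions are those of the RefSeq annotation on GRCm38.p6. Among the sequences below, miR-199b-3p and miR-155-5p are end variants of the RefSeq sequence, and their positions are those of the latter. For miR-199b-3p only the locus of that name is given, although miR-199a-3p shares its sequence. No entry for miR-34c-5p or miR-532-5p was matched. The first is miR-21a-5p (chr11:86584120-86584141, minus strand), which lies in an exon of Vmp1.
miR-21a-5p: tAGCTTATcagactgatgttga
Of the next, miR-34c-5p belongs to a family induced by p53. miR-199b-3p (chr2:32318524-32318545, plus strand), miR-199a-5p (chr1:162217844-162217866, plus strand, and a further copy at chr9:21496537-21496559, minus strand) and miR-214-5p (chr1:162223397-162223418, plus strand) are mesenchymal. The chromosome 1 copies of miR-199a-5p and miR-214-5p lie in exons of the non-coding RNA Dnm3os. miR-218-5p lies in introns of the guidance genes Slit2 (chr5:48223966-48223986, plus strand) and Slit3 (chr11:35616840-35616860, plus strand).
miR-34c-5p: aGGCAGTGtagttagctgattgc
miR-199b-3p: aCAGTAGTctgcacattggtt
miR-199a-5p: cCCAGTGTtcagactacctgttc
miR-214-5p: tGCCTGTCtacacttgctgtgc
miR-218-5p: tTGTGCTTgatctaaccatgt
A set of 5 comes from the imprinted Dlk1-Dio3 region of chromosome 12, all on the plus strand: miR-337-5p (chr12:109585818-109585839), miR-127-3p (chr12:109592888-109592909), miR-434-5p (chr12:109594528-109594549), miR-379-5p (chr12:109709065-109709085) and miR-381-3p (chr12:109726870-109726891).
miR-337-5p: cGGCGTCAtgcaggagttgatt
miR-127-3p: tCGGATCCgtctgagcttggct
miR-434-5p: gCTCGACTcatggtttgaacca
miR-379-5p: tGGTAGACtatggaacgtagg
miR-381-3p: tATACAAGggcaagctctctgt
The last is miR-155-5p (chr16:84714143-84714165, plus strand), processed from the non-coding RNA Mir155hg of immune cells. It is the opposite case, since it fell as miR-21a-5p rose.
miR-155-5p: tTAATGCTaattgtgataggg
The seeds of these 11 microRNAs other than miR-21a-5p all differ from one another and from that of miR-21a-5p.

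miR-21a-5p spanned 1.93-fold among the hearts with isoproterenol alone. These hearts held 46970 scaled reads in heart 958, 62860 in 951, 64490 in 941, 72383 in 954, 89726 in 948 and 90611 in 943. Scaled reads are raw reads divided by a factor per library that brings all 13 libraries to a common level. The hearts with both drugs spanned 1.47-fold, from 53889 in heart 957 and 55697 in 942, through 67450 in 955, 68114 in 939 and 71388 in 946, to 78451 in 952 and 79386 in 953. The widest step was 0.42 on the log2 scale, between hearts 958 and 951, with isoproterenol alone, and 0.28, between hearts 942 and 955, with both drugs. These values fix the order of the hearts and are a description. Heart 958 therefore lay lowest of all 13, and hearts 948 and 943 lay above every heart with both drugs. The order within groups depended on the scaling. By share of listed reads, heart 951 (1.57%) lay above 941 (1.13%) and 954 (1.23%), and 948 (1.81%) above 943 (1.66%). With both drugs, heart 946 (1.24%) lay below 939 (1.27%) and 955 (1.38%) by this share, and 955 above 939.

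**Figure D1:**
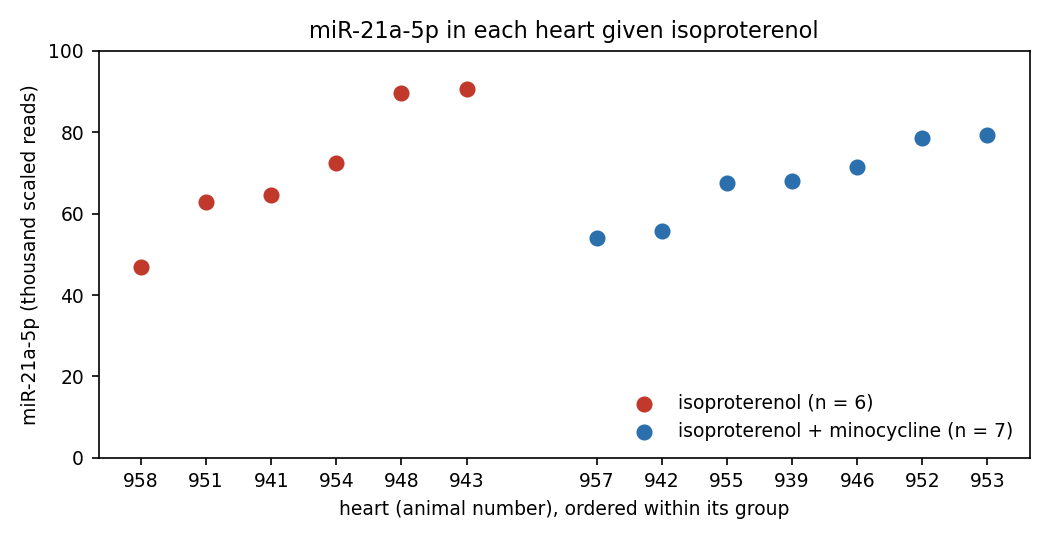
Scaled reads of miR-21a-5p (vertical axis) in each heart, ordered within its group along the horizontal axis. Points are single hearts, red for isoproterenol alone (46970 to 90611 scaled reads) and blue for isoproterenol with minocycline (53889 to 79386).

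Libraries held 4230053 to 6107141 reads of listed microRNAs with isoproterenol alone and 3166774 to 6548879 with both drugs. After group means were removed, the correlation of total reads with miR-21a-5p across the 13 hearts was r = 0.13 (Spearman rho 0.07, permutation p = 0.631 and 0.810, adjusted p = 0.972 and 0.896 over 26 heart-level measures). Without the hearts 958 and 943, whose miR-21a-5p lay farthest from the median, r was 0.24. miR-1a-3p, the main microRNA of heart muscle, took 28.3% to 43.3% of reads with isoproterenol alone, where heart 951 was the lowest, and 34.9% to 42.1% with both drugs. The muscle markers miR-1a-3p, miR-133a-3p, miR-499-5p and miR-208a-3p were present in all 13 hearts, as the tissue label has it. No entry of the epithelial list reached the minimum used for testing. The labels name no batch of library preparation or sequencing.

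Each of 264 entries of the table with a mean of at least 50 scaled reads was tested for a slope on miR-21a-5p within groups. A slope is the log2 change of an entry, on the log2(scaled reads + 1) scale, for each doubling of miR-21a-5p, and an entry was called at a Benjamini-Hochberg adjusted limma p below 0.05. Rising with miR-21a-5p were 12 entries (4.55% of those tested), and falling were 6 (2.27%), together 6.82%. With libraries scaled to their total reads instead, 13 entries rose and 0 fell (43 and 2 at an unadjusted limma p below 0.05), and the median slope of all entries shifted from 0.01 to 0.19. All 18 had a correlation of the called sign in both groups of hearts taken separately. A permutation test of r within groups, with 100000 resamples and the same adjustment, called 11 positive and 5 negative entries, among them 14 of the 18. It did not call miR-379-5p, miR-547-3p, mir-6240-p3 and mir-6236-p5 (adjusted permutation p = 0.0809, 0.0576, 0.0944 and 0.152). It did call miR-378a-5p and miR-328-3p as negative (adjusted permutation p = 0.0151 and 0.0179), which limma did not (limma adjusted p = 0.083 and 0.085). Without heart 958, the lowest in miR-21a-5p, 16 of the 18 missed the threshold, and miR-34c-5p and miR-127-3p passed it.

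The rising entries were miR-34c-5p, miR-218-5p, miR-532-5p and miR-152-3p, the mesenchymal miR-199b-3p, miR-199a-5p and miR-214-5p, and miR-127-3p, miR-434-5p, miR-379-5p, miR-381-3p and miR-337-5p of the Dlk1-Dio3 region. Their slopes ran from 0.45 for miR-152-3p to 1.79 for miR-34c-5p. The falling ones were miR-155-5p, miR-547-3p and miR-1249-3p, with slopes from -0.79 to -0.43, and 3 entries named for miR-6240 and miR-6236, with slopes from -5.70 to -3.04. No muscle, endothelial, smooth muscle or red blood cell marker was called.

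**Figure D2:**
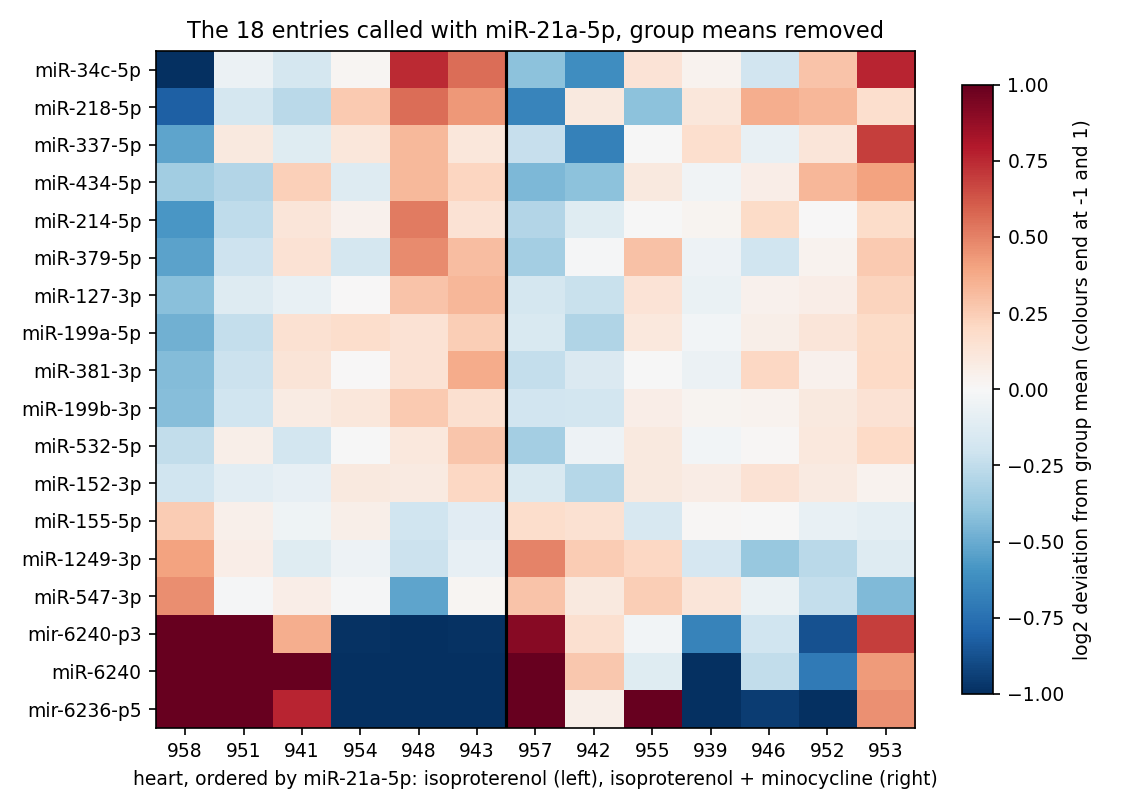
Log2 deviation of the 18 called entries from their group mean in each heart, with hearts ordered by miR-21a-5p in each group (isoproterenol alone left of the line, both drugs right) and entries by slope. Colours end at -1 and 1. The 12 rising entries turn mostly from blue to red from left to right in each block, and the 6 falling entries mostly the other way. Among the exceptions is heart 953 for the miR-6240 and miR-6236 entries. With both drugs, heart 955 also held more miR-127-3p than 939, 946 and 952, and heart 946 less miR-34c-5p than 955 and 939.

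miR-34c-5p followed miR-21a-5p with the steepest positive slope. With isoproterenol alone it measured 336.4 scaled reads in heart 958, 688.0 in 951, 632.9 in 941, 725.7 in 954, 1199 in 948 and 1052 in 943. With both drugs it measured 358.2 in heart 957, 308.3 in 942, 522.7 in 955, 487.4 in 939, 416.3 in 946, 580.2 in 952 and 805.0 in 953. The lowest heart of each group in miR-34c-5p was thus the lowest or next to lowest in miR-21a-5p, and the highest was the highest or next to highest. By limma the slope was 1.79 (SE 0.20, adjusted p = 9.58e-05), a 3.45-fold rise per doubling of miR-21a-5p. Across the 13 hearts r was 0.94 and rho 0.86 (permutation p = 1e-04 and 0.00053, adjusted p = 0.0088 and 0.0246), and r was 0.90 without hearts 958 and 943. The slope was 1.77 (SE 0.18) with isoproterenol alone and 1.82 (SE 0.42) with both drugs.

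Of its relatives, none was called, and the differences in slope from miR-34c-5p were not tested. miR-34a-5p, which has the same seed but comes from another locus, held 997.3 to 1114 scaled reads with isoproterenol alone (median 1077) and 941.1 to 1413 with both drugs (median 1069). The slope of miR-34a-5p was -0.16 (SE 0.17, limma adjusted p = 0.740), and its sign was positive (0.09) when libraries were scaled to total reads. miR-34b-3p and miR-34b-5p, from the same transcript as miR-34c, had means of 33.3 and 24.9 scaled reads, below the minimum. Tested with a minimum of 10, their slopes were 1.05 (SE 0.61, limma adjusted p = 0.465) and 1.38 (SE 0.44, limma adjusted p = 0.113). The miR-21a hairpin's other arm, miR-21a-3p, averaged 42.2 scaled reads, and its slope under the same lower minimum was 0.42 (SE 0.43, limma adjusted p = 0.727).

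Next came the Dlk1-Dio3 region, an imprinted domain whose maternally expressed microRNAs are abundant in the embryo and low in most adult tissue. miR-127-3p was its most abundant member and had the highest correlation of any tested entry. With isoproterenol alone it measured 1298 scaled reads in heart 958, 1587 in 951, 1645 in 941, 1740 in 954, 2109 in 948 and 2185 in 943, the same order as miR-21a-5p. With both drugs it measured 1231 in heart 957, 1192 in 942, 1532 in 955, 1328 in 939, 1436 in 946, 1455 in 952 and 1624 in 953. By limma the slope of miR-127-3p was 0.74 (SE 0.10, adjusted p = 0.000632), a 1.66-fold rise per doubling. r was 0.96 and rho 0.94 (permutation p = 1e-04 and 0.00013, adjusted p = 0.0088 and 0.0211), and r was 0.92 without hearts 958 and 943.

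The other called members of the region were less abundant. miR-379-5p ranged from 242.6 to 490.7 scaled reads with isoproterenol alone (median 350.7) and from 232.3 to 360.9 with both drugs (median 292.0), with a slope of 0.82 (SE 0.20, limma adjusted p = 0.026). miR-434-5p ranged from 140.7 to 223.9 (median 185.6) and from 91.96 to 166.3 (median 131.6), with a slope of 0.90 (SE 0.20, limma adjusted p = 0.0185). For each of these the lowest heart was 958 or 957, and 948 or 953 was at or near the top. miR-381-3p ranged from 63.21 to 111.4 and from 59.69 to 81.33 (slope 0.70, SE 0.17), and miR-337-5p from 49.96 to 90.99 and from 40.02 to 104.8 (slope 0.98, SE 0.26), with limma adjusted p = 0.026 and 0.0338.

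In all, 52 entries of the table belong to the Dlk1-Dio3 list, and 17 of them passed the minimum. Those 17 span 157.4 kb of chromosome 12 (GRCm38.p6, 109585818 to 109743194), from miR-337-5p to miR-409-5p. All 17 had a positive slope and a positive correlation in each group of hearts, and 5 were called rising, against 12 of all 264 entries (4.55%) and 7 of the 247 outside the region. Their median slope was 0.74, against 0.01 for all 264 entries, of which 137 (51.9%) were positive. Outside the region, 120 of 247 slopes were positive and the median was -0.01. The 17 entries lie in 1 region and include both arms of some hairpins, so they cannot be counted as independent observations. The 12 members that were not called had slopes from 0.29 to 1.12, among them miR-411-5p (0.53, SE 0.21, limma adjusted p = 0.178). Opposite arms of called hairpins were also uncalled: miR-434-3p had a slope of 0.63 (SE 0.20, limma adjusted p = 0.0834) and miR-127-5p one of 0.77 (SE 0.28, limma adjusted p = 0.138).

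As a single value per heart, the mean log2 level of the Dlk1-Dio3 members had r = 0.87 and rho = 0.77 with miR-21a-5p (permutation p = 0.00067 and 0.00504, adjusted p = 0.00871 and 0.0595 over the 26 measures). That mean holds the 5 called entries and is not separate evidence. r was 0.80 without hearts 958 and 943, 0.94 with isoproterenol alone and 0.76 with both drugs (exact permutation p = 0.00833 and 0.0528). In hearts 958 and 942 the mean lay lowest in its group, by 0.45 and 0.27 on the log2 scale below the group mean, and in heart 948 and heart 955 it lay highest. Without heart 958 the correlation was 0.79 and missed the threshold (adjusted permutation p = 0.0504).

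**Figure D3:**
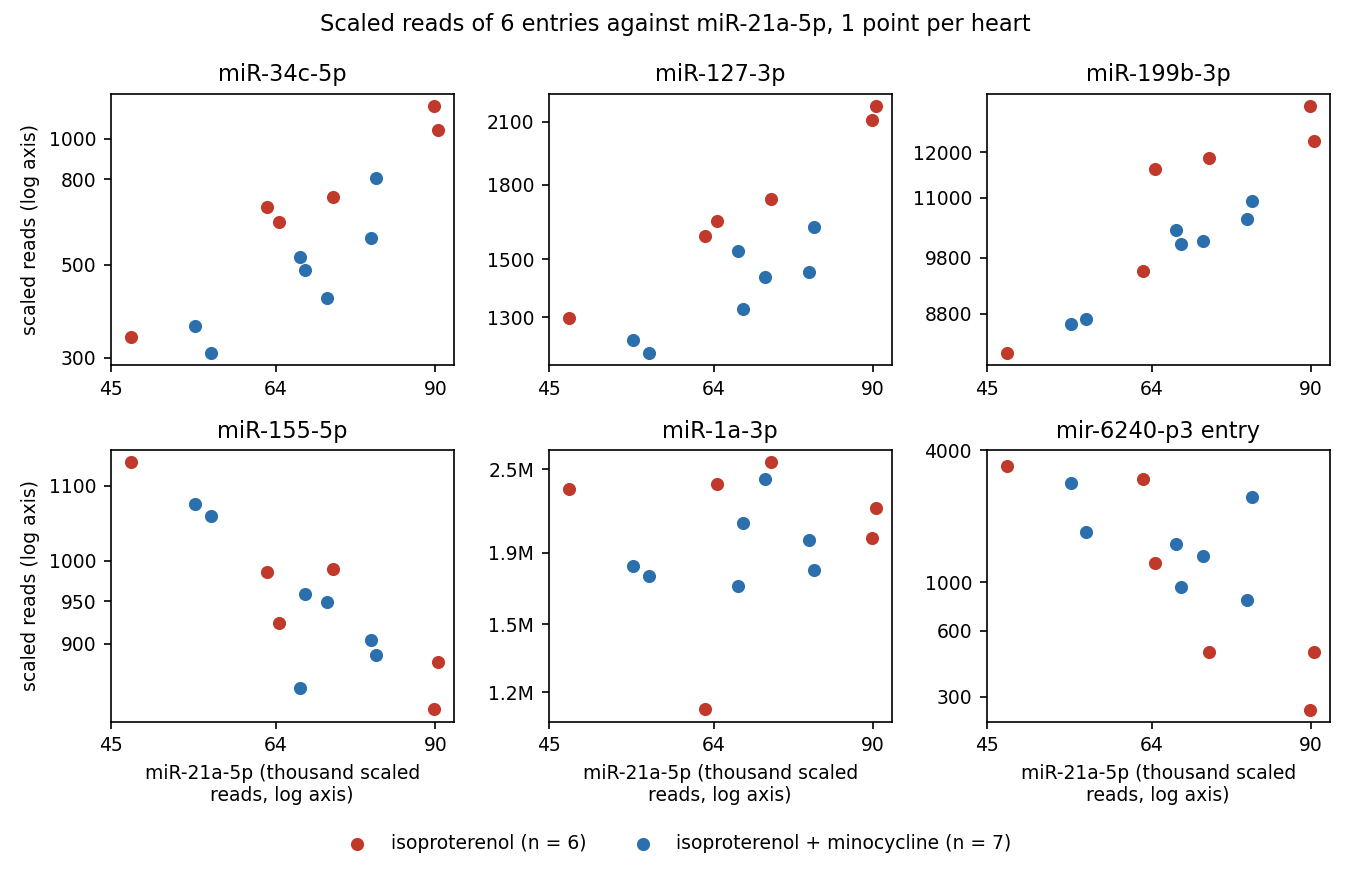
Scaled reads of 6 entries (vertical, log axis) against scaled reads of miR-21a-5p (horizontal, log axis), with 1 point per heart, red for isoproterenol alone (n = 6) and blue for both drugs (n = 7). miR-34c-5p (r = 0.94), miR-127-3p (r = 0.96) and miR-199b-3p (r = 0.93) rise from left to right, miR-155-5p (r = -0.88) and mir-6240-p3 (r = -0.78) fall, and miR-1a-3p (r = 0.11) has no clear trend.

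Of 5 tested mesenchymal entries, miR-199b-3p, miR-199a-5p and miR-214-5p rose, while miR-199b-5p and miR-214-3p did not pass the test. miR-199b-3p, whose sequence miR-199a-3p shares, so that their reads cannot be told apart, ranged from 8162 scaled reads in heart 958 to 13117 in heart 948 with isoproterenol alone (median 11744). With both drugs it ranged from 8622 in heart 957 to 10918 in heart 953 (median 10125). The hearts lowest and highest in miR-199b-3p were thus at the ends of the miR-21a-5p order in each group, or next to them. Its slope was 0.64 (SE 0.10, limma adjusted p = 0.00132), and r was 0.93 over all 13 hearts, 0.92 with isoproterenol alone and 0.97 with both drugs. miR-199a-5p ranged from 5957 to 9853 scaled reads (median 9230) and from 5930 to 8357 (median 7634), with a slope of 0.71 (SE 0.13, limma adjusted p = 0.0052).

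Of the miR-214 hairpin, which lies beside miR-199a-2 in Dnm3os, only the rarer arm was called. miR-214-5p ranged from 71.37 to 154.4 scaled reads with isoproterenol alone and from 87.12 to 122.0 with both drugs, with a slope of 0.85 (SE 0.18, limma adjusted p = 0.0151). miR-214-3p ranged from 1209 to 2118 (median 1562) and from 713.1 to 1628 (median 1569), with a slope of 0.42 (SE 0.36, limma adjusted p = 0.620). miR-199b-5p, with the seed of miR-199a-5p, had a slope of 0.43 (SE 0.20, limma adjusted p = 0.271). So 3 of the 5 tested entries of the fibroblast and mesenchyme list rose, against 12 of 264 (4.55%) of all entries. All 5 slopes were positive, against 137 of 264, and their median was 0.64, against 0.01. The 5 include both arms of the miR-214 hairpin and likewise cannot be counted as independent observations. The list mean had r = 0.83 and rho = 0.70 (permutation p = 0.00112 and 0.0157, adjusted p = 0.00971 and 0.0684 over the 26 measures), and r was 0.80 without hearts 958 and 943. That mean holds the 3 called entries and is not separate evidence. Without heart 958 the list mean missed the threshold (r = 0.73, adjusted permutation p = 0.0504). So did miR-199b-3p and miR-199a-5p (limma adjusted p = 0.0566 and 0.0873).

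A further 3 microRNAs rose outside these groups. miR-218-5p, which lies in genes of the Slit family, ranged from 93.8 scaled reads in heart 958 to 244.3 in heart 948 with isoproterenol alone, and from 112.9 in heart 957 to 230.1 in heart 946 with both drugs. The slope of miR-218-5p was 1.33 (SE 0.25, limma adjusted p = 0.0056), a 2.51-fold rise per doubling, and r was 0.86. miR-152-3p, which is processed from an intron of Copz2, ranged from 9221 to 12213 and from 8548 to 11517, with the shallowest called slope, 0.45 (SE 0.10, limma adjusted p = 0.0194). miR-148a-3p and miR-148b-3p, which share its seed, had slopes of 0.34 (SE 0.18, limma adjusted p = 0.339) and 0.13 (SE 0.14, limma adjusted p = 0.734). miR-532-5p ranged from 544.4 to 784.9 and from 514.7 to 750.5 (slope 0.53, SE 0.13, limma adjusted p = 0.026), while the other arm of its hairpin, miR-532-3p, had a slope of 0.01 (SE 0.31, limma adjusted p = 0.989) whose sign changed with the processing.

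miR-155-5p, raised in activated lymphocytes and macrophages, fell as miR-21a-5p rose. It held 1133 scaled reads in heart 958, 986.0 in 951, 924.1 in 941, 989.5 in 954, 828.1 in 948 and 879.3 in 943 with isoproterenol alone. With both drugs it held 1075 in heart 957, 1058 in 942, 851.5 in 955, 958.3 in 939, 949.3 in 946, 904.0 in 952 and 887.4 in 953. The hearts lowest in miR-21a-5p were the highest in miR-155-5p in both groups. The slope was -0.43 (SE 0.11, limma adjusted p = 0.026), r was -0.88 and rho -0.80 (permutation p = 0.00057 and 0.00412, adjusted p = 0.0151 and 0.0776), and r was -0.82 without hearts 958 and 943. miR-155-5p was the 1 called entry of 5 tested white blood cell markers, whose median slope was -0.23. Among the rest, miR-150-5p of mature lymphocytes ranged from 1731 to 2669 and from 2288 to 3274 (slope -0.48, SE 0.16, limma adjusted p = 0.104). The slope of miR-142a-3p was 0.20 (SE 0.36), that of miR-223-3p -0.07 (SE 0.17) and that of miR-342-3p -0.23 (SE 0.38). Their limma adjusted p were 0.824, 0.890 and 0.824.

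miR-1249-3p and miR-547-3p, whose roles in the heart are less well known, fell as well. miR-1249-3p ranged from 160.5 to 245.7 scaled reads with isoproterenol alone and from 159.5 to 293.6 with both drugs (slope -0.74, SE 0.20, limma adjusted p = 0.0375), and heart 958 and heart 957 were its highest. miR-547-3p ranged from 70.54 to 141.7 and from 89.44 to 148.4 (slope -0.79, SE 0.21, limma adjusted p = 0.0354). The same 2 hearts were its highest.

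The entries miR-6240, mir-6240-p3 and mir-6236-p5, whose origin as microRNAs was not tested, had the largest slopes in size. Their summed level was 4898 scaled reads in heart 958, 4014 in 951, 1505 in 941, 501.5 in 954, 293.4 in 948 and 516.5 in 943 with isoproterenol alone. With both drugs it was 3748 in heart 957, 1999 in 942, 2004 in 955, 1078 in 939, 1500 in 946, 957.6 in 952 and 2829 in 953. So the lowest heart of each group in miR-21a-5p held the most, but the order was looser with both drugs. There heart 953, the highest in miR-21a-5p, held the second most, heart 942 held less than 955, and 939 less than 946. Slopes were -3.04 (SE 0.66) for mir-6240-p3, -4.44 (SE 0.85) for miR-6240 and -5.70 (SE 1.44) for mir-6236-p5, with limma adjusted p = 0.0151, 0.00633 and 0.026. In the same order they were -3.81, -5.52 and -6.88 with isoproterenol alone (SE 0.67, 0.95 and 1.80). With both drugs they were -1.35, -2.09 and -3.12 (SE 0.94, 1.05 and 1.71). The mean of the 3 had r = -0.79 and rho = -0.75 (permutation p = 0.00571 and 0.0146, adjusted p = 0.0297 and 0.0684 over the 26 measures), and r was -0.64 without hearts 958 and 943. That mean holds 3 called entries and is not separate evidence. It missed the threshold without heart 941, 948, 957 or 958, with adjusted permutation p up to 0.110.

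Because these entries moved with the order of the hearts, the slopes were also fitted with their mean log2 level as a covariate, an alternative chosen after their slopes were seen. miR-34c-5p (slope 2.25, limma adjusted p = 0.000604) and miR-127-3p (slope 0.84, limma adjusted p = 0.0308) were then the 2 called entries, and limma called none falling (22 rising and 18 falling at an unadjusted p below 0.05). All 15 calls outside these 3 entries kept their direction, with miR-199b-3p at a slope of 0.52 and miR-218-5p at 0.79 (limma adjusted p = 0.161 and 0.319). The Dlk1-Dio3 mean kept r = 0.79 and the mesenchymal mean r = 0.69 (permutation p = 0.00253 and 0.014). The first principal component of all tested entries held 41.5% of the variance, had r = 0.82 and rho = 0.83 with miR-21a-5p (permutation p = 0.002 and 0.00291, adjusted p = 0.013 and 0.0595 over the 26 measures) and r = -0.99 with the mean of these 3 entries. With the 3 left out, the first component held 23.4% and its r with miR-21a-5p was 0.82 (permutation p = 0.00014).

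Muscle microRNAs did not move with miR-21a-5p in a way that passed the test: none of 7 tested entries was called, 2 slopes were positive, and the median was -0.27. miR-1a-3p ranged from 1133195 to 2557772 scaled reads with isoproterenol alone and from 1703771 to 2424425 with both drugs. Its slope was 0.12 (SE 0.31, limma adjusted p = 0.890) and turned to -0.18 with libraries scaled to total reads. miR-133a-3p ranged from 348973 to 493666 and from 349641 to 571069, with a slope of -0.38 (SE 0.18, limma adjusted p = 0.271). For miR-499-5p, encoded in a myosin gene, the slope was 0.05 (SE 0.19, limma adjusted p = 0.930), and its sign turned under other processing. miR-208a-3p, from the alpha myosin gene, had a slope of -0.30 (SE 0.27, limma adjusted p = 0.654).

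Neither the 2 endothelial entries nor the 4 smooth muscle entries were called, with median slopes of -0.0049 and 0.08. miR-143-3p of smooth muscle had a slope of 0.40 (SE 0.21, limma adjusted p = 0.333). Of 6 red blood cell entries none was called, but without heart 958 miR-144-3p passed the threshold (slope 3.03, SE 0.62, limma adjusted p = 0.026), a microRNA named after its values were seen. The slope of miR-451a was 0.92 (SE 0.59, limma adjusted p = 0.492), that of miR-144-5p 1.47 (SE 0.69, limma adjusted p = 0.271) and that of miR-486a-3p -0.63 (SE 0.23, limma adjusted p = 0.138). Of the 6, the 3 entries of miR-451a and miR-144 had positive slopes, and the 3 of miR-486 negative ones. The most abundant, miR-486b-5p (24752 scaled reads), had a slope of -0.12 (SE 0.19). The mean of the 6 had r = 0.40 with miR-21a-5p (adjusted permutation p = 0.314 over the 26 measures), and 0.72 without hearts 958 and 943. Its r was -0.11 with isoproterenol alone and 0.84 with both drugs (exact permutation p = 0.843 and 0.0244). With the red blood cell mean as a covariate, 7 entries rose and 3 fell, and all 18 calls kept their direction. Among 30 tested entries that are reported to be raised in hypertrophy, 4 rose (miR-34c-5p and the 3 mesenchymal entries), against 12 of 264 (4.55%) of all entries, and the median slope was 0.08. The mean of that list, which holds those 4 entries and is not separate evidence, had r = 0.69 and rho = 0.69 with miR-21a-5p (permutation p = 0.00712 and 0.0158, adjusted p = 0.0309 and 0.0684 over the 26 measures). r was 0.57 without hearts 958 and 943, 0.93 with isoproterenol alone and 0.55 with both drugs (exact permutation p = 0.00833 and 0.190). This mean missed the threshold under both other scalings (adjusted permutation p = 0.316 and 0.262), and without heart 942, 943, 948, 953 or 958 (up to 0.110). miR-146a-5p and miR-146b-5p, induced by NF-kB, had slopes of 0.16 (SE 0.22, limma adjusted p = 0.782) and 0.30 (SE 0.19, limma adjusted p = 0.492), the former turning to -0.01 with the red blood cell covariate. miR-9-5p, a neuronal microRNA, had a slope of -0.64 (SE 0.29, limma adjusted p = 0.271).

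**Figure D4:**
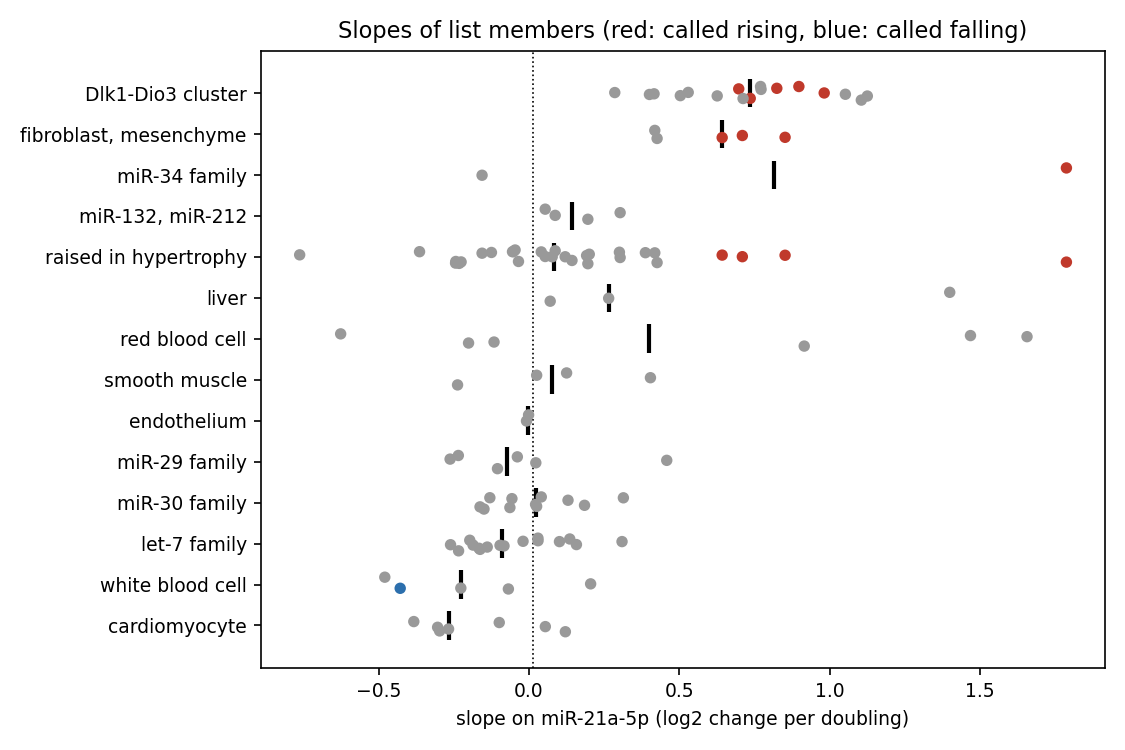
Slope on miR-21a-5p (log2 change per doubling, horizontal) of each tested member of 14 lists. Points are entries (red called rising, blue called falling, grey not called), the short black bars are list medians, and the dotted line is the median of all 264 entries (0.01). The 17 Dlk1-Dio3 entries all lie right of 0 with a median of 0.74, and the 7 cardiomyocyte entries lie between -0.38 and 0.12.

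Whether entries followed miR-21a-5p differently with and without minocycline was asked with an interaction term. No slope difference was called by limma (0.0% of 264 entries, lowest adjusted p = 0.421), and 24 entries had an unadjusted p below 0.05. Differences of slope, both drugs minus isoproterenol alone, were largest in size among the named entries for miR-144-5p (3.86, SE 1.09) and mir-6236-p5 (3.76, SE 3.04). After these came miR-122-5p of liver (-3.745, SE 1.904), miR-6240 (3.43, SE 1.65) and miR-451a (2.95, SE 1.02). miR-451a had a slope of -0.01 (SE 0.36) with isoproterenol alone and of 2.94 (SE 0.93) with both drugs. For miR-146a-5p the slopes were -0.22 (SE 0.15) and 1.01 (SE 0.30), with a difference of 1.23 (SE 0.34). For miR-144-5p, miR-451a and miR-146a-5p the adjusted p of the difference was 0.421. Without heart 952 the differences of miR-451a and miR-144-5p passed the threshold, and without heart 957 that of miR-146a-5p did.

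How many entries were called rested on single hearts. Without heart 958 there were 3 rising calls (miR-34c-5p, miR-127-3p and miR-144-3p) and 0 falling (23 and 11 at an unadjusted limma p below 0.05), without 948 there were 7 and 1, and without 957 there were 6 and 2. Without heart 953 there were 9 and 3, and without 942 there were 16 and 12. Without both 958 and 943, 1 rising entry (miR-34c-5p) and no falling entry was called by limma (21 and 12 unadjusted). The calls of miR-199b-3p, miR-199a-5p, miR-218-5p and miR-6240 were lost without heart 958 alone, and those of miR-214-5p and mir-6240-p3 without heart 958 or 948. The other 10 were each lost without 3 to 8 of the hearts, heart 958 among them. All 18 slopes kept their sign in each of these fits, and miR-34c-5p and miR-127-3p passed the test without any 1 of the 13 hearts. With isoproterenol hearts alone, 3 rising (miR-34c-5p, miR-127-3p and miR-218-5p) and 2 falling entries (miR-6240 and mir-6240-p3) were called (29 and 17 at an unadjusted p below 0.05). With the hearts given both drugs alone, limma called none (22 rising and 11 falling at an unadjusted p below 0.05). With libraries scaled to total reads, the 6 falling slopes stayed negative, with miR-155-5p at -0.16.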

How the data were processed

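Small RNA libraries of 13 hearts were analysed from 1 of 2 deposited tables. Raw reads per listed microRNA, length variant or predicted microRNA are the counts that the authors deposited, per the file headers. The labels name the miRNeasy Mini kit for extraction and say that ACGT101-miR (LC Sciences) removed adapter dimers, low-complexity reads, repeats and common structural RNA families. The mapper, genome build and miRBase release were not given in the sources used here. The 12 deposited normalized columns were not used.

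The counts are written with quoted commas, which the unit check does not read as counts, so the test for values on a log scale was used. Scaling factors were trimmed means of log ratios to 1 reference library over all 617 entries, with 0.3 of ratios and 0.05 of levels trimmed from each end. Of 266 entries with a mean of at least 50 scaled reads, miR-21a-5p was set aside and 1 entry with reads identical to another was dropped, which left 264. Entries just above this minimum include miR-486b-3p (50.2 scaled reads) and just below it miR-350-5p (49.6). limma 3.58.1 in R 4.3.3 was fitted to log2(scaled reads + 1) with trended empirical Bayes, with group and the group-centred log2 miR-21a-5p as terms, and with Benjamini-Hochberg adjustment. Pearson and Spearman correlations used deviations from group means and 100000 permutations within groups, or all permutations within 1 group; all tests were two-sided. The procedure was tested on simulated data, in which entries varied independently with a common spread, as real entries need not. It called 59 of 60 entries with a true slope of 1.0 either way (98.3%). With a true slope of 0.5 it called 19 of 59 (32.2%), and with no slope 2 of 145 (1.38%). Entries with slopes near 0.5 can thus be missed.

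Named entries are miR-21a-5p, the called ones, some members of some lists and some known cardiac and blood markers, with the other arm or seed partner of called ones. Many list members, abundant ones among them, are not named. The hearts, the 21 lists and these names were chosen with earlier results of these data known. Where family members are nearly identical, reads may be split between them, which makes single values uncertain. Reads carry no molecular identifiers. Alternatives covered scaling, minimum, pseudocount, weights, covariates, rank and left-out hearts.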

Additional observations from a re-analysis of the deposited data

Results flagged for a closer look

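Of 82 groups of hearts examined (most named entries, in each group), 4 held a heart whose gap to its nearest neighbour was large against the range of the group. Chance alone flags about 1 in 20 groups. miR-6240 was highest in heart 957 with both drugs, at 277.5 scaled reads against 53.03 to 143.9 in the others. miR-146a-5p was lowest in heart 948 with isoproterenol alone, at 5724 scaled reads against 6970 to 7435. miR-148a-3p was highest in heart 946 with both drugs, at 16332 scaled reads against 11981 to 13433. miR-451a of red blood cells was highest in heart 953 with both drugs, at 4792 scaled reads against 776.7 to 2332.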

How the results depend on the processing

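Each called slope kept its direction in every alternative that tested it (11 of the 18 with a minimum of 200, 15 with the miR-6236 and miR-6240 covariate), and median-of-ratios scaling, a pseudocount of 10, a minimum of 10, voom weights, identical entries kept, and covariates for total reads or miR-1a-3p left both counts of calls within 1.5 times of 12 rising and 6 falling. The counts moved further elsewhere. Scaling to total reads gave 0 falling, a minimum of 200 gave 7 rising and 3 falling, the red blood cell covariate 7 and 3, the miR-6236 and miR-6240 covariate 2 and 0, and the rank of miR-21a-5p in place of its level 6 and 1. Leaving out hearts 958 and 943 gave 1 and 0, isoproterenol hearts alone 3 and 2, and hearts with both drugs alone 0 and 0. With 1 heart left out at a time, rising calls ran from 3 to 16, falling calls from 0 to 12 and slope differences from 0 to 2. Causes were not tested, beyond there being fewer hearts or entries where those were left out.

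Heart-level correlations under the same changes were as follows. Scaling to total reads gave -0.46 for the miR-6236 and miR-6240 mean (adjusted permutation p = 0.503) and 0.29 for the first component (0.606), and it turned total reads to -0.082 and the miR-1a-3p share to -0.35. With isoproterenol alone, r missed the adjusted threshold for the mesenchymal mean (0.86), Dlk1-Dio3 mean (0.94), miR-6236 and miR-6240 mean (-0.87) and first component (0.88), and turned for total reads (-0.10) and the red blood cell mean (-0.11). With both drugs alone these were 0.79, 0.76, -0.56 and 0.69. With 1 heart left out, r ran from 0.73 to 0.87 for the mesenchymal mean, 0.79 to 0.94 for the Dlk1-Dio3 mean, -0.85 to -0.67 for the miR-6236 and miR-6240 mean, 0.74 to 0.87 for the first component, -0.13 to 0.32 for total reads and -0.085 to 0.35 for the miR-1a-3p share. Without heart 958 the Dlk1-Dio3 and mesenchymal means and the first component missed the threshold (adjusted permutation p = 0.0504, 0.0504 and 0.0632), and the miR-6236 and miR-6240 mean did so without heart 941, 948, 957 or 958. The mean of the hypertrophy list had r = 0.61 (total scaling), 0.49 (median of ratios), 0.93 (isoproterenol alone) and 0.55 (both drugs alone), none of which passed the adjusted threshold, and ran from 0.62 to 0.76 with a heart left out.

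Slopes that were not called changed sign in places. miR-1a-3p turned to -0.18 (total scaling), -0.014 (median of ratios) and -0.71 (miR-6236 and miR-6240 covariate), and ran from -0.037 to 0.45 with a heart left out. miR-499-5p turned to -0.018 (median of ratios), -0.59 (that covariate) and -0.22 (both drugs alone), and ran from -0.056 to 0.16 with a heart left out. miR-532-3p turned to -0.061 (median of ratios), -0.021 (voom), -0.16 (red blood cell covariate), -0.0077 (rank), -0.0062 (without hearts 958 and 943), -0.16 (isoproterenol alone) and ran from -0.16 to 0.15 with a heart left out. miR-34a-5p turned to 0.090 (total scaling) and 0.025 (isoproterenol alone). miR-146a-5p turned to -0.0088 (red blood cell covariate) and -0.22 (isoproterenol alone), and miR-451a to -0.0065 (isoproterenol alone). With the miR-6236 and miR-6240 covariate, miR-148b-3p and miR-148a-3p turned to -0.068 and -0.066 and miR-486a-3p to 0.0034. miR-150-5p passed the threshold with median-of-ratios scaling (-0.59), miR-133a-3p without heart 942 (-0.52) and miR-434-3p without heart 955 (0.62). No paired analysis was possible because each animal number belongs to 1 heart. Depth limits slopes of entries near the minimum, where a few reads shift the log2 level.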
